A study of Homo sapiens with 17 samples.

Results

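The data compare A549 and H2122, 2 cell lines from human lung adenocarcinomas, after wild-type LKB1 had been put back into both. Of the 17 arrays in the series, 6 carry this comparison, 3 titled A549 LKB1 and 3 titled H2122 LKB1, chosen by title alone. The other 11 arrays are the controls of the same lines: A549 with kinase-dead LKB1 K78I (3 arrays), A549 with empty pBABE (3), H2122 with K78I (3) and H2122 with empty pBABE (2). Every cell population, controls included, was stably transduced with a pBABE retrovirus and selected for 2 weeks in puromycin at 1 µg/mL. Cells grew in RPMI1640 with 5% serum and were harvested in logarithmic growth, and each array started from 130 ng of total RNA. Whether replicates were separate cultures is not in the labels. A p-value here therefore speaks of array-to-array spread, which may be technical, and with 2 or 3 arrays a group its precision is limited. Values are log2 expression levels, on which 1 unit is a 2-fold difference. Each line difference is given as A549 minus H2122.

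LKB1, encoded by STK11, is a serine/threonine kinase and tumour suppressor that is often inactivated in lung adenocarcinoma, and both lines are known to lack its function. Here it came from a retroviral construct and not from its own locus. With its partners STRAD and MO25 it activates AMPK and a family of related kinases, among them the salt-inducible kinases, which hold the CRTC coactivators of the transcription factor CREB out of the nucleus. Loss of LKB1 is known to alter cell polarity, adhesion to the matrix, metabolism and the output of CREB. The question put to the arrays is which differences between the lines are present only with, only without, or both with and without a working LKB1.

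Of the markers of the labelled cell types, the epithelial keratin KRT8 was high in both lines. It averaged 12.91 in A549 LKB1 and 11.78 in H2122 LKB1 arrays. Most of the epithelial list went the other way, with 24 of 30 measured genes lower in A549 with LKB1 and 3 higher. The lung factor NKX2-1 averaged 4.39 in A549 LKB1 and 5.52 in H2122 LKB1 arrays. The 14 measured blood and endothelial markers averaged 4.20 to 4.26 on A549 LKB1 arrays and 4.20 to 4.31 on H2122 LKB1 arrays, and the 11 fibroblast markers averaged 3.86 to 4.02 on A549 LKB1 and 4.09 to 4.16 on H2122 LKB1 arrays. These lie below the 25th percentile of all genes' mean levels, which is 4.52. Without detection calls, a level near 4 cannot be told from background.

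STK11 stood at 9.42, 10.23 and 9.62 on the A549 LKB1 arrays and at 11.20, 11.35 and 11.26 on the H2122 LKB1 arrays. The groups did not overlap, and the difference was −1.51 (exact two-sided permutation p = 0.1, the smallest that 3 arrays against 3 can give). The restored kinase transcript was thus measured at a lower level in every A549 LKB1 array than in every H2122 one, and its part in the results below was not tested. In limma, whose spread includes the discordant A549 controls described next, the same difference had an adjusted p of 0.202. On 2 A549 control arrays STK11 went against the label, at 10.52 on pBABE replicate 3 and 7.14 on K78I replicate 2. For 3 H2122 arrays (pBABE replicate 2, LKB1 replicate 3, K78I replicate 3) the source name gives another construct than title, description and construct label, which were followed here. STK11 on them was 6.22, 11.26 and 11.26, beside 6.33 on H2122 pBABE replicate 1 and 11.20 to 11.35 on the other H2122 LKB1 and K78I arrays. STK11 thus went with the title on pBABE replicate 2, but it cannot tell LKB1 from K78I. Fits without these 3 arrays keep only replicate 1 of H2122 pBABE and replicates 1 and 2 of H2122 LKB1 and K78I. The mean of the 33 measured cell cycle genes was 9.56 to 9.81 in A549 LKB1 and 9.26 to 9.47 in H2122 LKB1 arrays, but reached down to 8.66 in A549 K78I, 9.17 in A549 pBABE and 7.97 in H2122 pBABE arrays.

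With LKB1 restored, 5899 of 17958 genes (32.8%) passed an adjusted p of 0.05 for a line difference. In A549, 3124 were higher (17.4%) and 2775 lower (15.5%). At 2-fold or more, 1177 were higher and 1139 lower, and at 16-fold or more 82 and 93. The LKB1 arrays of the lines did not overlap for 9347 genes (52%). Without LKB1, taking the mean of K78I and pBABE in each line, 7245 genes (40.3%) were called, from 11 arrays instead of 6. At equal numbers, 3 K78I arrays against 3 also gave 5899 calls, of which 4045 were shared with those of the LKB1 arrays. The similar totals therefore cover partly different genes.

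The change of the line difference, with minus without LKB1, compares the measured LKB1 effects of the lines. A gene near background in either line cannot show a fall there, so its called change need not mean a different action of LKB1. The change was called for 647 genes (3.6%), 292 shifted towards A549 (1.63%) and 355 towards H2122 (1.98%). Of the genes called with LKB1, 4624 were also called without it, which is 78.4% of the first list and 63.8% of the second, and 4588 of them kept their sign. Across all genes, which are not independent replicates, the line differences with and without LKB1 had a Pearson correlation of 0.874 and share no array. Most of the distance between the lines was thus present in both states, as the plot of line differences shows along its diagonal.

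**Figure D1:**
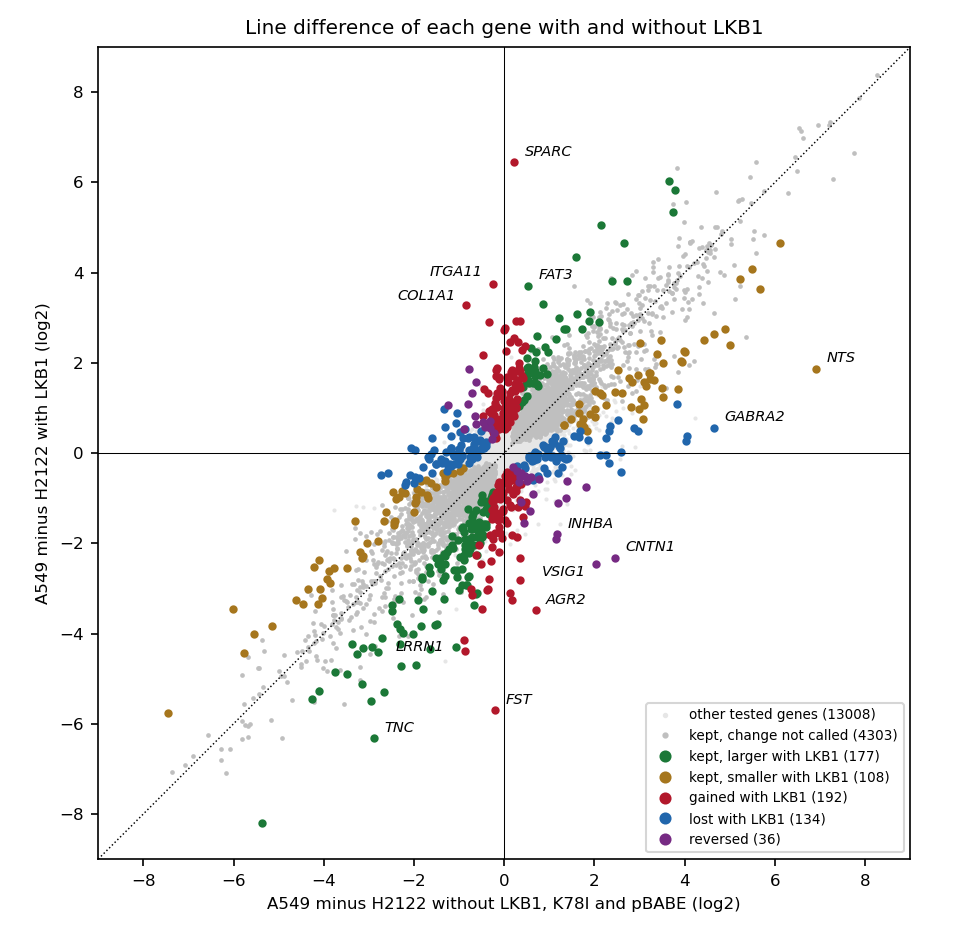
Line difference of each of 17958 genes, A549 minus H2122 in log2 units, without LKB1 (x axis) and with LKB1 (y axis), coloured by class; the dotted line marks equal differences. SPARC, ITGA11 and FST lie near 0 without LKB1 and far from 0 with it, while CNTN1 and VSIG1 lie on opposite sides of 0.

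The 647 genes fell into classes by which differences were called. A difference was gained for 192 genes (called only with LKB1), lost for 134 (called only without), reversed in sign for 36, kept but larger for 177 and kept but smaller for 108. For the gained genes the effect of LKB1 was called in A549 alone for 96, in H2122 alone for 75 and in both lines for 10. The lost genes divided likewise, with 50 called in A549 alone, 58 in H2122 alone and 14 in both. Kept and larger differences were mostly lower in A549 (125 of 177), and there the LKB1 effect was called in H2122 alone for 104 and in A549 alone for 61. A lost difference is one that no longer passed the test, which does not show equal levels. Another 4303 genes kept a difference whose change was not called. The count of 647 was 209 without the 3 arrays with conflicting labels and 310 to 870 when single arrays were left out, the lowest without A549 LKB1 replicate 3 and the highest without H2122 pBABE replicate 1.

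SPARC, a secreted collagen-binding matrix glycoprotein, showed the largest gain of all tested genes. It stood at 9.75, 10.65 and 10.59 on A549 LKB1 arrays and at 3.83, 4.09 and 3.72 on H2122 LKB1 arrays. Control arrays lay between 3.85 and 4.61 in A549 and between 3.83 and 4.12 in H2122, so only the A549 LKB1 arrays stood apart. The line difference was 6.45 ± 0.22 with LKB1 (SE, adjusted p = 8.36e-12) and 0.22 without it (adjusted p = 0.332), a change of 6.23 ± 0.28 (adjusted p = 1.26e-08). ITGA11, the alpha subunit of a collagen-binding integrin, followed the same pattern, with 7.77, 8.45 and 8.51 on A549 LKB1 arrays against 4.46, 4.56 and 4.48 on H2122 LKB1 arrays. All 11 control arrays lay between 3.88 and 4.88. Its change was 3.999 ± 0.22 (adjusted p = 1.63e-07). COL1A1, the alpha chain of type I collagen, had 10.02, 10.78 and 10.36 on A549 LKB1 and 6.84, 7.47 and 6.97 on H2122 LKB1 arrays, with a change of 4.14 ± 0.54 (adjusted p = 0.000686). A549 controls ranged from 5.59 to 7.81 and H2122 controls from 6.85 to 7.72. These 3 genes of the collagenous matrix became A549-high differences through A549, where LKB1 minus controls was 6.15, 4.11 and 3.90. In H2122 the same effects were −0.08, 0.11 and −0.23 and did not pass the test.

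FST, follistatin, which binds and neutralises activins, moved the other way. It stood at 4.41, 4.11 and 3.98 on A549 LKB1 arrays and at 10.23, 8.60 and 10.75 on H2122 LKB1 arrays. Controls of A549 ranged from 5.41 to 6.92 and those of H2122 from 5.01 to 8.06, so the lines overlapped without LKB1 and parted with it. LKB1 lowered FST by 2.02 in A549 (adjusted p = 0.013) and raised it by 3.47 in H2122 (adjusted p = 0.0004). The line difference was −5.70 ± 0.54 with LKB1 and −0.20 without (adjusted p = 8.17e-07 and 0.74), a change of −5.49 ± 0.67 (adjusted p = 0.00046). TNC, tenascin-C, a matrix glycoprotein of remodelling tissue, was already lower in A549 without LKB1 and became more so. Its A549 arrays all lay between 4.18 and 4.81, whatever the construct. In H2122 it stood at 10.86, 10.53 and 11.03 with LKB1, against 5.81 to 8.76 on control arrays. The line difference was −6.32 ± 0.47 with LKB1 and −2.89 without, a change of −3.43 ± 0.59 (adjusted p = 0.00428).

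**Figure D2:**
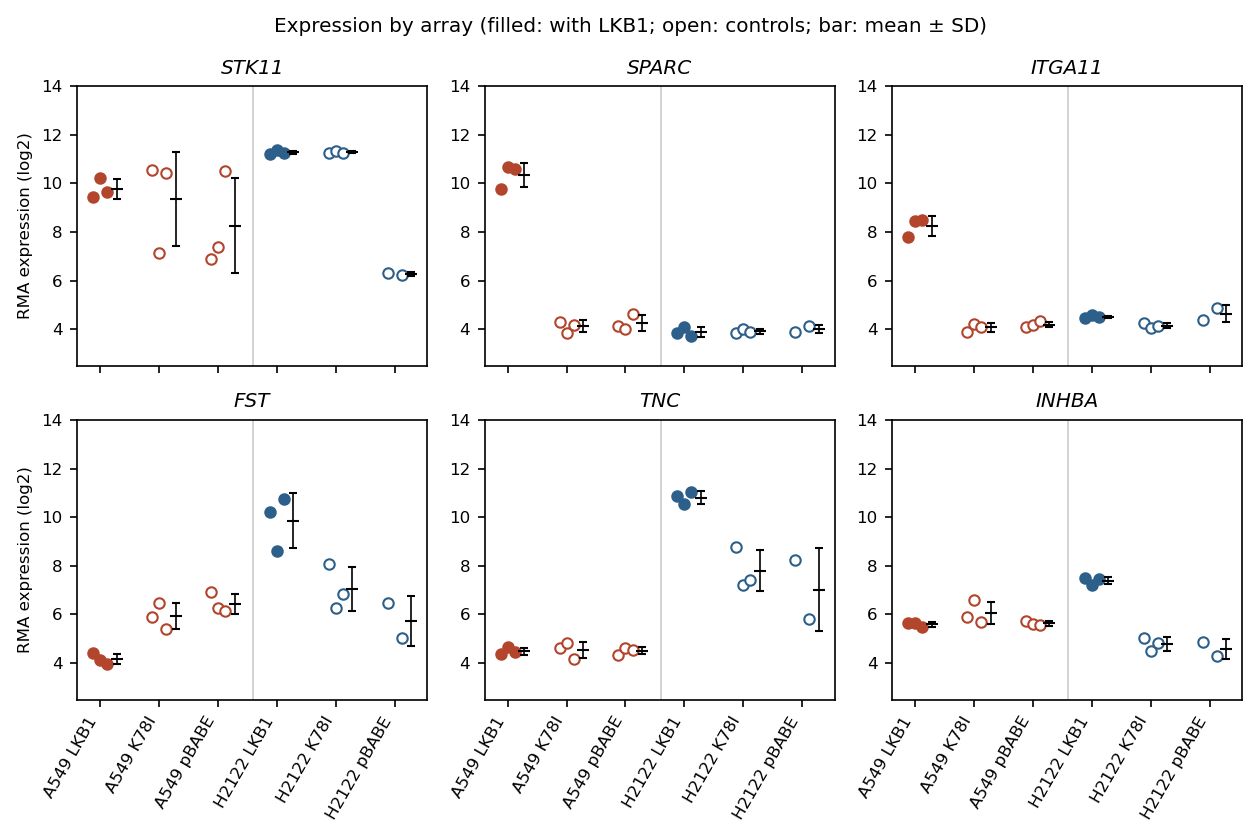
RMA expression (log2, y axis) of STK11, SPARC, ITGA11, FST, TNC and INHBA on each of the 17 arrays, by line and construct; filled points are LKB1 arrays, open points controls, and bars the mean ± SD of the group. SPARC and ITGA11 stand apart only on A549 LKB1 arrays, TNC and INHBA are highest on H2122 LKB1 arrays, and FST is lowest on A549 LKB1 and highest on H2122 LKB1 arrays.

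The 250 bases before the RefSeq start of 6 genes that carry these patterns are shown (RefSeq, build GRCh38.p14), since the same construct was followed by opposite or one-line responses at them. They were searched on both strands for the CREB element TGACGTCA, its core TGACG, the AP-1 site TGANTCA, the TEAD site GGAATG and the TATA box TATAAA. The core also lies inside each full CREB element. Capitals mark every match to any of these motifs.
SPARC, chr5:151686916-151687165, minus strand: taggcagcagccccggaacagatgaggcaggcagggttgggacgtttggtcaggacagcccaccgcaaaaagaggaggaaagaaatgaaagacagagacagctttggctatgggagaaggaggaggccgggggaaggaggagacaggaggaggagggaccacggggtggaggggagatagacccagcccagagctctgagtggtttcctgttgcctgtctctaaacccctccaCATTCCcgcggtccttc
ITGA11, chr15:68432164-68432413, minus strand: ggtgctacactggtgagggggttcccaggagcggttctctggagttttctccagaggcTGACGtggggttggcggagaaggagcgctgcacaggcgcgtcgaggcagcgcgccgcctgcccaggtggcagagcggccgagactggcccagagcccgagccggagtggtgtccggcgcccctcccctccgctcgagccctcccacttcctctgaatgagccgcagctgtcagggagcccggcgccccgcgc
FST, chr5:53480379-53480628, plus strand: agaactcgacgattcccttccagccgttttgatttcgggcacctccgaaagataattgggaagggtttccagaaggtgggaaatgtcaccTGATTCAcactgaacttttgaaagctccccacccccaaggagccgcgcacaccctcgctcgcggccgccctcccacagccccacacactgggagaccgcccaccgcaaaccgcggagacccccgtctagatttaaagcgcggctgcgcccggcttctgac
TNC, chr9:115118158-115118407, minus strand: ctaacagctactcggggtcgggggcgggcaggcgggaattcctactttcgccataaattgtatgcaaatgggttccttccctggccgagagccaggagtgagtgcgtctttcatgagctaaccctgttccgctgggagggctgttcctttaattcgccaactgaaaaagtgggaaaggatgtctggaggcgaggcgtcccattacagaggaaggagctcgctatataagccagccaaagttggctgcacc
INHBA, chr7:41703091-41703340, minus strand: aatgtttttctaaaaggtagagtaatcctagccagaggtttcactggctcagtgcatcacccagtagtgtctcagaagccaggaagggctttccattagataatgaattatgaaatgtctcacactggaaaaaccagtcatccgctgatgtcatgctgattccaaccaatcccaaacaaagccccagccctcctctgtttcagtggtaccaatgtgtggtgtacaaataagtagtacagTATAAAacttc
NTS, chr12:85874045-85874294, plus strand: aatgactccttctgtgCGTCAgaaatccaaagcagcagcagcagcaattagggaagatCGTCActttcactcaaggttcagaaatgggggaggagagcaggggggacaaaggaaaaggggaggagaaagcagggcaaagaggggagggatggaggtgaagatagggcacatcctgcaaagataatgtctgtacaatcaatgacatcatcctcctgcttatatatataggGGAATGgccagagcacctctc
Of all 35116 RefSeq windows of this length, 1.65% hold TGACGTCA, 21.2% TGACG, 6.57% TGANTCA, 11.9% GGAATG and 10.7% TATAAA. The SPARC window held 1 match, to GGAATG, the ITGA11 window 1 to TGACG, and the FST window 1 to TGANTCA. INHBA held 1 match to TATAAA, NTS held 2 to TGACG and 1 to GGAATG, and TNC held 0. A match is a description of the letters and not a measured binding site.

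Among the 8 gained genes with the largest change, AGR2, CPS1, VSNL1 and TENM2 were, like FST, lower in A549 with LKB1. AGR2, a disulfide isomerase of mucus-secreting cells, had 6.19, 4.85 and 5.53 on A549 LKB1 arrays and 8.98, 9.04 and 9.01 on H2122 LKB1 arrays, whereas its controls overlapped (8.999 to 12.17 in A549, 9.002 to 11.14 in H2122). CPS1, which feeds ammonia into the urea cycle, fell in both lines with LKB1, by 5.36 in A549 and 2.10 in H2122, which left a line difference of −4.15 ± 0.53. For both genes the change lost its call without the 3 arrays with conflicting labels (adjusted p = 0.0518 for AGR2 and 0.0571 for CPS1). VSNL1, a neuronal calcium sensor, and TENM2, a teneurin adhesion receptor, were raised by LKB1 in H2122, by 2.46 and 3.25. TENM2 had 3.80, 3.60 and 3.59 on A549 LKB1 arrays against 5.78, 7.25 and 7.69 on H2122 LKB1 arrays, and every control array lay between 3.37 and 4.05. Its change was −3.42 ± 0.42 (adjusted p = 0.000473), and that of VSNL1 −3.50 ± 0.61 (adjusted p = 0.00527). With K78I as the only control, which includes the discordant A549 K78I replicate 2, the change of VSNL1 had an adjusted p of 0.13.

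Of the 36 reversed genes, INHBA, the subunit of activin A that follistatin binds, was raised by LKB1 in H2122 alone. It stood at 5.64, 5.65 and 5.48 on A549 LKB1 arrays and at 7.51, 7.22 and 7.45 on H2122 LKB1 arrays. Controls lay between 5.55 and 6.59 in A549 and between 4.29 and 5.05 in H2122, so the order of the lines turned round without overlap in either state. The 3 arrays with conflicting source names lay here on the side, LKB1 or control, that their titles give, at 7.45 on LKB1 replicate 3, 4.84 on K78I replicate 3 and 4.29 on pBABE replicate 2. INHBA was chosen from a fit grouped by title, so these values do not test the titles. The line difference was −1.80 ± 0.21 with LKB1 and 1.17 without (adjusted p = 6.81e-06 and 1.89e-05), a change of −2.98 ± 0.26 (adjusted p = 1.95e-05). CNTN1, contactin, a neural adhesion molecule, was lowered by 3.65 in A549 and raised by 1.11 in H2122, giving −2.32 with LKB1 and 2.45 without. VSIG1, an immunoglobulin-domain adhesion protein, was lowered by 2.58 in A549 and raised by 1.90 in H2122. It had 4.89, 4.02 and 4.20 on A549 LKB1 and 6.72, 6.99 and 6.74 on H2122 LKB1 arrays, against 6.26 to 7.63 on A549 controls and 4.32 to 5.63 on H2122 controls. DEFB1, an antimicrobial beta-defensin, reversed through A549, where LKB1 lowered it by 3.41. CACNA1D, a voltage-gated calcium channel subunit, SGK1, a kinase induced by serum and glucocorticoids, and NEDD9, an adhesion scaffold, were also lower in A549 with LKB1 and higher without. Their line differences with LKB1 were small, −0.75 for CACNA1D, −0.99 for SGK1 and −1.12 for NEDD9, and these lost their call in 2 of 22 re-fits for CACNA1D, 6 for SGK1 and 14 for NEDD9, with adjusted p up to 0.0638, 0.117 and 0.114. For NEDD9 the replicate block gave 0.0613, and its change was not called in 5 re-fits, so its place among the reversed genes depended on the arrays and the fit used. TSPAN18, a tetraspanin, was the reversed gene among these 8 that was higher in A549 with LKB1, by 1.86 ± 0.35, against −0.79 without.

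The 8 lost differences with the largest change were all higher in A549 without LKB1. GABRA2, a subunit of the GABA type A receptor, had 4.16, 4.24 and 3.94 on A549 LKB1 arrays and 3.92, 3.25 and 3.48 on H2122 LKB1 arrays, against 7.19 to 9.89 on A549 controls and 3.14 to 3.89 on H2122 controls. The A549 level had fallen into the low range of H2122, near background, where a fall in H2122 could not be seen. The line difference was 0.56 ± 0.52 with LKB1 and 4.64 without. ANKRD62, the placental hormone gene INSL4 and VTN, vitronectin, were lost in the same manner, lowered by LKB1 in A549 by 3.35, 3.71 and 2.84. FN1, fibronectin, was lost from the other side. It stood at 11.77, 11.28 and 11.76 on A549 LKB1 and 11.15, 10.98 and 11.20 on H2122 LKB1 arrays, against 8.94 to 11.26 on A549 controls and 5.21 to 8.71 on H2122 controls. LKB1 raised it by 3.89 in H2122 (adjusted p = 8.4e-05), and the line difference was 0.50 ± 0.50 with LKB1 and 2.97 without. EDN1, endothelin, a vasoactive peptide, was raised by 2.39 in H2122 and differed between the lines by 0.02 ± 0.37 with LKB1 and 2.59 without. AKAP12, a scaffold for protein kinase A, was raised by 2.78 in H2122, and RASSF9, of the Ras-association family, was lowered by 1.94 in A549. Only GABRA2 and ANKRD62 of these 8 kept a called change without the 3 arrays with conflicting labels. There the adjusted p of the change was 0.0594 for EDN1, 0.075 for INSL4, 0.133 for VTN, 0.228 for FN1, 0.25 for AKAP12 and 0.269 for RASSF9. In 22 re-fits INSL4 lost the call 7 times, AKAP12 11, FN1 13 and RASSF9 14 times.

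Among kept differences that were larger with LKB1, MAL2, which acts in transport to the apical membrane, reached the lowest value of any gene, −8.20 ± 0.43 with LKB1 and −5.38 without. It had 4.49, 4.15 and 3.93 on A549 LKB1 arrays against 12.50, 12.28 and 12.39 on H2122 LKB1 arrays, and 6.11 to 8.16 on A549 controls. Its change (−2.82) had an adjusted p of 0.0916 without the 3 arrays with conflicting labels. LRRN1, a leucine-rich repeat neuronal protein, the receptor tyrosine kinase ROS1 and the ligand WNT7A were raised in H2122, by 3.23, 3.10 and 2.75, and the effects in A549, −0.00, 0.37 and 0.06, did not pass the test. FAT3, an atypical cadherin, the cyclic nucleotide phosphodiesterase PDE11A and RAB3B, a regulator of secretory vesicles, were raised in A549, by 3.11, 2.91 and 2.78. FAT3 had 6.97, 7.15 and 7.27 on A549 LKB1 and 3.484, 3.380 and 3.404 on H2122 LKB1 arrays, with a change of 3.17 ± 0.25 (adjusted p = 9.08e-06).

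Of the kept differences that were smaller with LKB1, NTS, neurotensin, changed most. It stood at 6.49, 4.78 and 5.63 on A549 LKB1 arrays and 4.08, 3.75 and 3.47 on H2122 LKB1 arrays, against 9.11 to 11.83 on A549 controls and 3.76 to 3.97 on H2122 controls. The line difference was 1.87 ± 0.58 with LKB1 and 6.92 without, a change of −5.05 ± 0.72 (adjusted p = 0.00138). The NTS difference with LKB1 was no longer called without A549 LKB1 replicate 1 (adjusted p = 0.107) or replicate 3 (0.0547). Nor was it called without H2122 LKB1 replicate 2 (0.0533) or replicate 3 (0.0726). H2122 levels lay near background, where a fall could not be seen. The nogo receptor relative RTN4RL2, the neutrophil chemokine CXCL5, the complement component C5 and DDC, which makes dopamine and serotonin, also approached H2122 through lower A549 levels. Their line differences with LKB1 were 2.40, 1.42, 2.74 and 1.45, against 5.00, 3.86, 4.90 and 3.50 without. HOXD10, a homeobox factor, approached it from below, at 7.37, 7.41 and 7.76 on A549 LKB1 arrays against 11.02, 10.99 and 10.93 on H2122 LKB1 arrays, and 3.77 to 5.43 on A549 controls. GSDME, a pore-forming gasdermin, narrowed as it rose by 2.11 with LKB1 in H2122, and FAT4, an atypical cadherin, as it fell by 1.01 in A549 and rose by 1.27 in H2122.

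**Figure D3:**
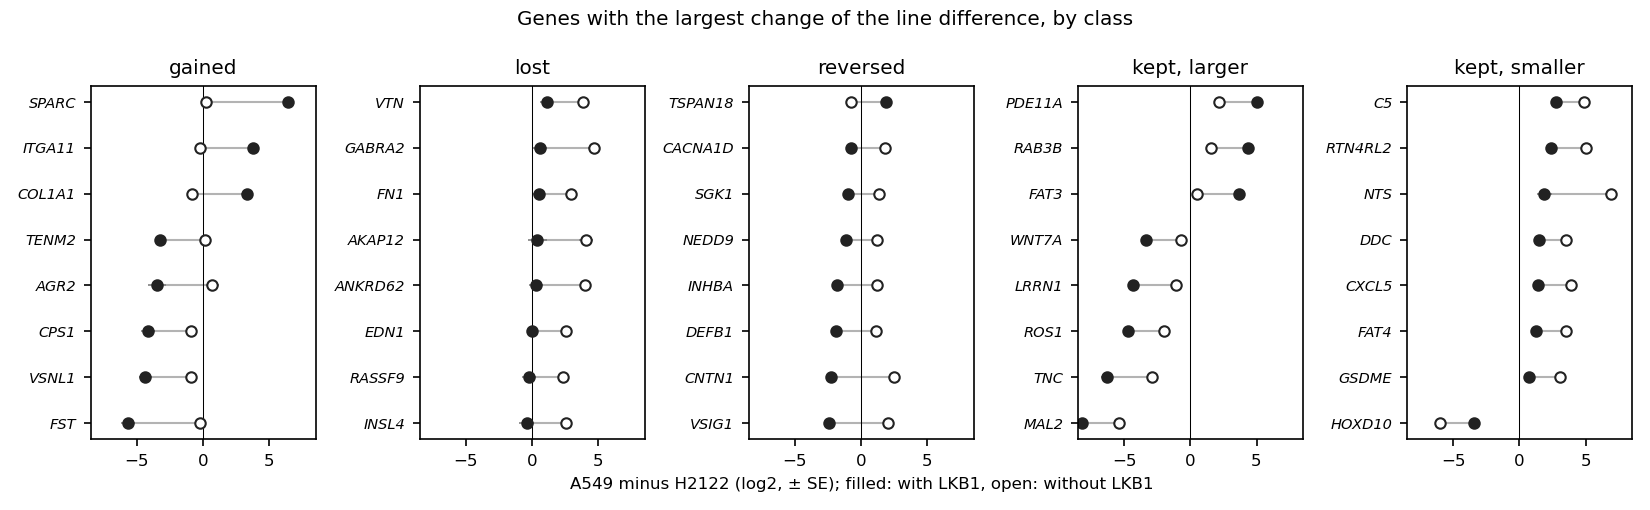
Line difference, A549 minus H2122 in log2 units ± SE (x axis), with LKB1 (filled) and without (open), for the 8 genes with the largest change in each class. Filled and open points lie on opposite sides of 0 in the reversed class, and the filled points of the lost class lie between −0.42 and 1.08.

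The 8 highest line differences with LKB1 were kept, and their change was not called. The small nucleolar RNA SNORD116-14, of an imprinted cluster on chromosome 15, had 10.84, 10.15 and 10.51 on A549 LKB1 arrays against 2.10, 2.24 and 2.03 on H2122 LKB1 arrays, a difference of 8.38 ± 0.17 with LKB1 and 8.26 without. Its relatives SNORD116-24, SNORD116-20 and SNORD116-15 lay at 7.27, 7.26 and 7.20, but these copies are near-identical, so their probes may not tell them apart. UPK1B, a uroplakin of the bladder lining, differed by 7.87 with LKB1 and 7.87 without, HAVCR1, a cell surface receptor of injured kidney epithelium, by 7.33 and 7.21, and the histone gene H3C11 by 7.14 and 6.58. Lower in A549 were the ion channel gene TRPA1 (−7.08 with LKB1 and −6.16 without), the calprotectin subunit S100A8 (−7.06 and −7.37), the carboxylesterase CES1 (−6.92 and −7.08), the cytokine IL1A (−6.80 and −6.29) and the long noncoding RNA UCA1 (−6.71 and −6.89). VIM, vimentin, the intermediate filament of mesenchymal cells, was 11.78, 11.91 and 11.76 on A549 LKB1 arrays against 4.84, 4.91 and 4.72 on H2122 LKB1 arrays. It differed by 6.99 ± 0.12 with LKB1 and 6.61 without.

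Epithelial and mesenchymal genes separated the lines in both states. All gene lists here and below were written with earlier results of these data known, so their shares are descriptive. Of 30 measured epithelial genes, 3 were higher and 24 lower in A549 with LKB1 (90% called beside 32.8% of all genes). The same counts were found without LKB1. The median difference of these epithelial genes was −2.31 with LKB1 and −2.66 without, beside a median of 0.00 over all genes tested with LKB1. The tight junction gene CLDN7 (−6.56), the splicing regulator ESRP1 (−6.56), the vesicle GTPase RAB25 (−6.25), the protease ST14 (−6.02) and the transcription factor GRHL2 (−5.57) were among the lower. The change was called for 6 of the 30, and for 0 without the 3 arrays with conflicting labels. CDH1, E-cadherin, and CLDN1 gained a difference, at −1.17 and −1.19 with LKB1, against 0.46 and 0.30 without, values that did not pass the test. The CDH1 and CLDN1 changes were no longer called without the 3 arrays with conflicting labels (adjusted p = 0.185 and 0.183). CDH3, P-cadherin, and MAL2 widened, while CLDN4 and MUC1 narrowed, by 1.13 and 1.12. Of 24 mesenchymal genes, 11 were higher and 5 lower in A549 with LKB1 (66.7% called). Their median was 0.69 with LKB1 and 0.28 without. Beside VIM, the receptor kinase AXL (4.63), cadherin CDH11 (4.20), tropomyosin TPM2 (3.77) and ZEB1 (2.71) were higher. CDH2, N-cadherin, and NT5E, the ectoenzyme that makes adenosine, ran against the list, lower in A549 by −3.13 and −3.80 with LKB1, and their difference had widened by −2.51 and −2.26. The NT5E change was −1.92 without the 3 arrays with conflicting labels, and its call, unlike that of CDH2, depended on them. Of 17 squamous and basal genes, 1 was higher and 10 lower (64.7% called). KRT5 and S100A2 widened, by −2.08 and −1.98, calls that were lost in 8 and 12 of 22 re-fits. Without the 3 arrays with conflicting labels both changes were −1.42.

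Among matrix receptors, some line differences were lost with LKB1 and others gained. Of 27 integrin and laminin genes, 2 were higher and 8 lower in A549 with LKB1 (37% called beside 32.8% of all genes). The change was called for 7, which is 25.9% beside 3.6% of all genes. Without the 3 arrays with conflicting labels it was called for 3 of the 27. ITGA11 alone shifted towards A549, and 6 shifted towards H2122. Since ITGA11 was a marker given with this comparison, the share of called changes in this list is descriptive. The difference was lost for ITGB5 (−0.10 with LKB1 and 1.21 without), LAMB1 (0.36 and 1.66), ITGB1 (−0.32 and 0.46) and ITGA5 (−0.60 and 0.63), subunits of fibronectin, vitronectin and laminin adhesion. ITGA6, a laminin receptor subunit, gained one (−0.95 and −0.06), and LAMC1 widened (−0.87 and −0.26). The LAMC1 change lost its call in 13 of 22 re-fits, among them the replicate block (adjusted p = 0.0599). ITGB8 (−3.86) and the hemidesmosome subunit ITGB4 (−2.96) stayed lower in A549. Of 35 matricellular genes, 6 were higher and 7 lower with LKB1 (37.1% called). The change was called for 5 (14.3% beside 3.6% of all genes). These were SPARC, TNC, FN1, VTN and the proteoglycan VCAN, which narrowed to 2.02 with LKB1, against 3.93 without. SPARC and TNC were likewise markers given with this comparison, so this share is descriptive too. Without the 3 conflicting arrays 2 of the 35 were called. Of 25 collagen and lysyl oxidase genes, 8 were higher and 6 lower (56% called). The basement membrane chain COL4A3 was higher by 3.32, and LOXL4, a collagen cross-linking oxidase, gained a difference of 1.57 ± 0.15 through A549. COL8A1 widened to −3.24 with LKB1, against −1.34 without.

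Among 31 metalloproteases, plasminogen system genes and inhibitors, 7 were higher and 14 lower in A549 with LKB1, against 6 and 10 without. The share called with LKB1 was 67.7%, beside 32.8% of all genes (40.3% without LKB1). MMP14, a membrane-anchored collagenase, had a difference of −3.10 with LKB1 and −0.61 without, a change of −2.495 (adjusted p = 4.22e-05). The tissue plasminogen activator PLAT (−4.75), ADAM12 (−2.89), and, on the other side, ADAMTS9 (4.58) and MMP24 (3.94) kept theirs. The collagenase MMP13 gained a difference (−2.05), with a change that lost its call in 10 of 22 re-fits (adjusted p = 0.229 without the 3 arrays with conflicting labels, and 0.153 with K78I as the only control). The change was called for 4 of the 31 (12.9% beside 3.6% of all genes), or 1 without the conflicting arrays. Of 30 activin and BMP genes, 7 were higher and 4 lower with LKB1 (36.7% called, near the share of all genes), against 13 and 2 without. The change was called for 6 (20%), among them the marker FST given with this comparison, so this share is descriptive. Without the 3 arrays with conflicting labels 4 were higher with LKB1 and 2 changed. Beside FST and INHBA, the difference of TGFB1 was lost (0.74 with LKB1 and 2.53 without), that of the activin and inhibin subunit INHBB narrowed (0.63 and 1.72), and that of ID2, a target of BMP signalling, widened (2.76 and 1.37). The BMP receptor genes ACVR1 (1.99) and BMPR1B (1.81) and the ligand BMP4 (2.502) stayed higher in A549.

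Target genes of CREB and CRTC lie downstream of the salt-inducible kinases named above, whose activity was not measured here. Of 28 measured, 4 were higher and 1 lower with LKB1 (17.9% called), against 12 and 2 without. Of all genes, 32.8% were called with LKB1, from 6 arrays, and 40.3% without, from 11. The median difference of the 28 was 0.00 with LKB1 and 0.63 without. Without the 3 controls low in cell cycle genes, 6 were higher and 4 lower with LKB1, against 10 and 5 without, and the median without LKB1 was 0.33. The change itself was called for 3, NTS, INSL4 and PDE4B, all towards H2122, and at an unadjusted p of 0.05 for 7. These counts moved with the arrays used: the change was called for 8 without the 2 A549 controls at odds with their STK11 label, and for 2 without the 3 arrays with conflicting labels. PDE4B, a cyclic AMP phosphodiesterase, differed by 0.49 with LKB1 and 1.83 without, a change of −1.34. The nuclear receptor NR4A1 differed by −0.29 with LKB1 and 1.47 without, NR4A3 by −0.08 and 1.53, and FOS by 0.56 and 1.36, with changes that were not called. PDE4D (1.37) and DUSP1 (1.97) kept their differences. Of the 18 members of the LKB1 complex and its substrate kinases, 4 were higher and 4 lower with LKB1 (44.4% called). NUAK2, an AMPK-related kinase, lost its difference (0.56 with LKB1 and 2.88 without), and the LKB1 partners STRADA (0.91) and STRADB (1.47) stayed higher in A549. The NUAK2 change was not called without A549 LKB1 replicate 3 (adjusted p = 0.0577), H2122 LKB1 replicate 2 (0.0525) or H2122 LKB1 replicate 3 (0.0513).

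Among genes of antigen presentation, lower levels in A549 outnumbered higher ones. Of 17 MHC class I genes, 0 were higher and 12 lower with LKB1 (70.6% called beside 32.8% of all genes), against 1 and 11 without. The median was −0.93 with LKB1 and −0.50 without. In limma 1 gene was higher with LKB1 at an unadjusted p of 0.05, and the change was called for 3, or 0 without the 3 arrays with conflicting labels. HLA-C (−1.78), TAP2 (−1.85) and B2M (−1.49) were among the lower, although HLA paralogs share sequence and their probes may not separate them. The peptide transporter TAP1 gained a difference, −0.66 with LKB1 and −0.04 without, and HLA-G and PDIA3 widened. The PDIA3 change lost its call in 19 of 22 re-fits that left out arrays, blocked on the replicate number (adjusted p = 0.0569) or centred the arrays (0.0684), and those of TAP1 and HLA-G in 4 each. Of 32 cytokines, chemokines and immune ligands, 2 were higher and 16 lower with LKB1, against 5 and 13 without, and the change was called for 7 (21.9% beside 3.6% of all genes), or 1 without the 3 arrays with conflicting labels. The checkpoint ligand CD274 (PD-L1) stood at −2.93 with LKB1 and −0.95 without, PDCD1LG2 (PD-L2) at −2.47 and −0.51, and IL1B at −5.12 and −3.16. In that smaller set the changes of these genes were not called (adjusted p = 0.109 for CD274, 0.151 for PDCD1LG2 and 0.313 for IL1B), and IL1B lost its call in 17 of the 22 re-fits. Of 36 interferon-stimulated and nucleic acid sensing genes, 7 were higher and 13 lower, with a median of −0.17. Of them 55.6% were called with LKB1, and 56.2% of the cytokine list, beside 32.8% of all genes. The DNA sensor CGAS was higher in A549 by 3.60 and its partner STING1 lower, at −2.39, both kept.

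The share of all genes called with LKB1, 32.8%, and with a called change, 3.6%, is the background for the counts that follow. The lists had called shares with LKB1 of 59.1% for p53, 12.1% for the cell cycle, 44.8% for NRF2, 51.9% for MAPK and the EGF family, 54.5% for YAP and TEAD and 62.1% for hypoxia and glycolysis. Of 22 targets of p53, the stress-responsive tumour suppressor, 12 were higher and 1 lower in A549 with LKB1, led by EDA2R (4.16), DDB2 (1.93) and BAX (1.31), and 0 had a called change in limma (3 at an unadjusted p of 0.05). Of 33 cell cycle genes, 4 were higher, among them TYMS (1.62) and BIRC5 (1.20), and 0 changed in limma (0 also at an unadjusted p of 0.05). Without the 3 controls low in these genes, 13 were higher and 2 lower with LKB1. Of 29 NRF2 targets, 9 were higher and 4 lower, and the aldehyde dehydrogenase ALDH1A1 alone changed, widening to 3.82 with LKB1, against 2.72 without. The ALDH1A1 change was 0.94 without the 3 arrays with conflicting labels, and its call depended on them. Of 27 MAPK feedback and EGF family genes, 5 were higher and 9 lower, with DUSP6 at −3.23, TGFA at −3.56 and HBEGF at −3.004. Neuregulin NRG1 lost its difference (0.50 with LKB1 and 2.32 without). Of 22 YAP and TEAD targets, 5 were higher and 7 lower (9 and 8 without those 3 controls), and F3, tissue factor, was at −3.54. Of 29 hypoxia and glycolysis genes, 10 were higher and 8 lower, with the glucose transporter SLC2A3 at 5.52, and 6 changed, or 0 without the 3 arrays with conflicting labels. The enolase ENO2 showed the largest of these shifts, at 2.59 with LKB1 and 0.72 without.

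**Figure D4:**
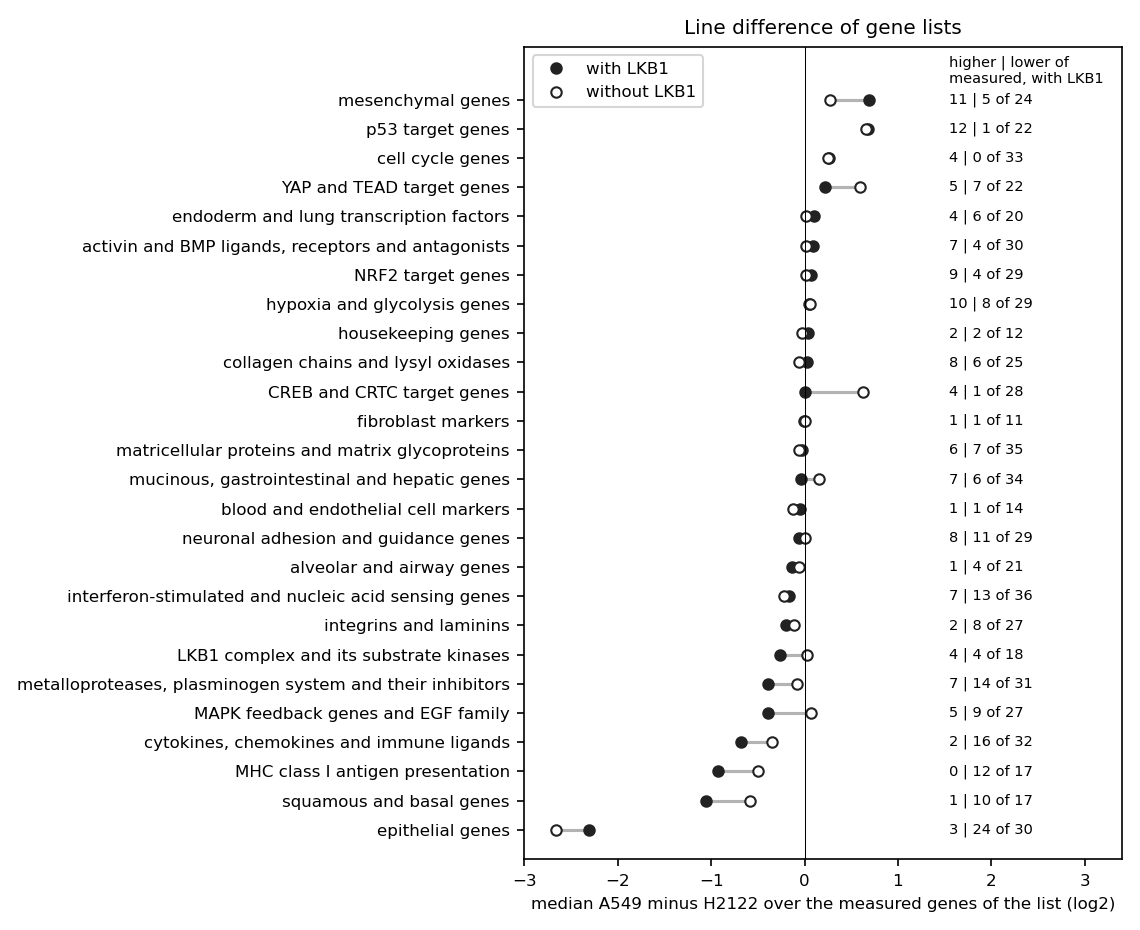
Median line difference, A549 minus H2122 in log2 units (x axis), over the measured genes of each list with LKB1 (filled) and without (open); the counts give genes called higher and lower in A549 with LKB1. Epithelial genes lie at −2.31 and −2.66, and CREB and CRTC target genes at 0.00 and 0.63, of which the second was 0.33 without the 3 controls low in cell cycle genes.

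Lists of tissue identity were called at shares from below to above that of all genes. With LKB1, 38.2% of mucinous, gastrointestinal and hepatic genes, 10 of 20 endoderm and lung transcription factors and 23.8% of alveolar and airway genes differed between the lines, beside 32.8% of all genes. Of 34 mucinous, gastrointestinal and hepatic genes, 7 were higher and 6 lower, with APOH (3.70) and SERPINA1 (2.96) higher in A549. Of 20 endoderm and lung transcription factors, 4 were higher and 6 lower, with SOX2 (−3.57) and EHF (−4.05) lower and GATA4 (1.99) higher in A549. Of 21 alveolar and airway genes, 1 was higher and 4 lower. PDPN, podoplanin, gained a difference of −3.03, against −0.39 without LKB1. SCGB1A1, the secretoglobin of club cells, widened to −4.34 with LKB1, against −1.66 without. With K78I as the only control its change was −1.70 and not called (adjusted p = 0.128). ABCA3, the lipid transporter of surfactant secretion, gained one of 1.999, against 0.32 without. Of 29 neuronal adhesion and guidance genes, 8 were higher and 11 lower (65.5% called). The change was called for 8 (27.6% beside 3.6% of all genes). As this list was written with earlier results of these data known, the share is descriptive. MDGA1, an adhesion regulator of synapses, gained a difference of 2.91, with LKB1 effects of 4.69 in A549 and 1.44 in H2122, and TENM3 (3.96), CADM1 (4.02) and EFNB2 (−4.17) kept theirs. Of the genes chosen by the naming rule, 84 had a called change, and 38 of them kept the call in all 22 re-fits that left out single or doubted arrays, blocked on the replicate number or centred the arrays. The other 46 lost it in at least 1 of these re-fits. The re-fit without the 3 arrays with conflicting labels leaves H2122 pBABE with replicate 1 alone, so it also has less replication. The 10 that lost it in 10 or more of the 22 were PDIA3, IL1B, TCF4, FOXA2, RASSF9, FN1, LAMC1, S100A2, AKAP12 and MMP13. With K78I as the only control 33 of the 84 lost the call, among them TSPAN18, C5, VCAN, CDH1, CDH3, TGFB1, TAP1, HLA-G, NRG1, ABCA3, CD274, PDCD1LG2 and KRT5. That comparison rests on fewer control arrays. Among them are A549 K78I replicate 2, whose STK11 went against its label, and H2122 K78I replicate 3, whose source name conflicts.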

How the data were processed

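RNA from 17 samples was measured on Affymetrix arrays. The deposited table holds log2 expression levels. Per the submitters' processing notes, the authors used RMA and Affymetrix Expression Console 1.1. RMA equalises the distributions of arrays, which would hide a common shift of most genes. No genome build was needed for the values.

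Of 33297 probe sets, 19181 had 1 symbol, 2055 several and 12061 none in the platform annotation given. Where a gene had more than 1 probe set (895 genes) the brightest was kept, leaving 17958 genes. Groups came from titles. One limma 3.58.1 fit (R 4.3.3, lmFit and eBayes) covered all 17 arrays in 6 groups, with Benjamini-Hochberg adjustment over all genes and a threshold of 0.05. K78I and pBABE had equal weight. STK11 also had an exact permutation test. Same-numbered LKB1 arrays of the lines had deviations correlating at 0.024, −0.134 and 0.0375 (−0.644 to 0.42 over all same-numbered pairs of groups). Differently numbered arrays were not compared, so these values cannot settle whether replicate numbers pair samples or mark a batch. The main fit did not block on them.

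Genes and the 27 lists (633 of 698 members measured) were chosen with earlier results of these data known. Named genes were STK11 and 4 markers, the 8 highest and 8 lowest with LKB1, 8 per class, and up to 5 members per list for the line difference and 4 for its change. Further list members are given with values. The fit was tested on simulated data.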

Additional observations from a re-analysis of the deposited data

Results flagged for a closer look

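The measured LKB1 effect differed between A549 and H2122, by the interaction term of the fit, for 647 genes. For genes near background in either line, this need not mean a different action of LKB1. The genes below are the markers and those with the largest change in each class, with the change of the line difference (A549 effect minus H2122 effect) in log2 units.

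In the gained class the change was 6.23 for SPARC, 4.14 for COL1A1 and 3.999 for ITGA11, all towards A549. It was −5.49 for FST, −4.18 for AGR2, −3.50 for VSNL1, −3.42 for TENM2 and −3.27 for CPS1, towards H2122. The 8 lost genes all shifted towards H2122, by −4.08 for GABRA2, −3.75 for ANKRD62, −3.66 for AKAP12, −3.005 for INSL4, −2.75 for VTN, −2.57 for EDN1, −2.54 for RASSF9 and −2.47 for FN1.

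Of the reversed genes, CNTN1 changed by −4.77, VSIG1 by −4.48, DEFB1 by −3.04, INHBA by −2.98, CACNA1D by −2.57, SGK1 by −2.35 and NEDD9 by −2.32, while TSPAN18 changed by 2.64. Differences that were kept and larger changed by −3.43 for TNC, −3.23 for LRRN1, −2.82 for MAL2, −2.73 for ROS1 and −2.69 for WNT7A, and by 3.17 for FAT3, 2.91 for PDE11A and 2.76 for RAB3B. Those kept and smaller changed by −5.05 for NTS, −2.60 for RTN4RL2, −2.44 for CXCL5, −2.32 for GSDME, −2.28 for FAT4, −2.15 for C5 and −2.05 for DDC, and by 2.55 for HOXD10.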

How the results depend on the processing

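The count of kept differences stayed within 1.5 times 4588 under all 32 alternatives, from 3337 to 5778, and the signs and calls of SPARC, ITGA11, FST and TNC held with LKB1 under all 30 run for them. The count called with LKB1 was 9675 with array weights and otherwise within 1.5 times 5899. The count without LKB1 was 4644 with pBABE as the only control, and otherwise within that range. Called changes were 175 when grouping by source name, 209 without the 3 arrays with conflicting labels, 1706 with array weights, 297 with K78I alone as control, 402 with pBABE alone and 238 at an adjusted p under 0.01. Under the same 6 settings gained differences were 61, 63, 590, 109, 157 and 83, lost ones 37, 30, 290, 50, 73 and 40, and reversed ones 8, 11, 84, 15, 27 and 7. Lost ones were 210 without the 2 A549 controls at odds with their STK11 label. Without the 6 arrays doubted on any ground, an alternative chosen after seeing the data, changes numbered 368, gained 110, lost 66 and reversed 26. Of the 209 changes without the 3 conflicting arrays, 194 were among the 647. These settings also leave fewer arrays, and the cause of the lower counts was not tested.

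Leaving out single arrays gave 4788 to 6489 differences with LKB1, 6677 to 7443 without, 310 to 870 changes, 94 to 240 gained, 56 to 218 lost, 17 to 53 reversed and 3904 to 5092 kept. Leaving out any LKB1 array moved the gained count by over 1.5 times (94 to 127), and the change count too, except for A549 LKB1 replicate 1 (444). The lost count moved as far without A549 LKB1 replicates 2 and 3 or any H2122 LKB1 array (56 to 86), without A549 pBABE replicates 1 (88) and 2 (81), H2122 K78I replicate 3 (87) and H2122 pBABE replicate 1 (218), and the reversed count without A549 LKB1 replicate 3 (17), any H2122 LKB1 array (20 to 21) and H2122 K78I replicate 3 (22). The replicate block gave 5773 differences with LKB1, 7027 without, 617 changes, 172 gained, 121 lost, 35 reversed and 4442 kept.

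Grouping by source name turned the STK11 difference to 0.17 with LKB1 and its change to 1.39, and the change of FST (−2.47) and TNC (−0.68) was then not called. With K78I as the only control the STK11 change was 0.41. The STK11 difference with LKB1 passed the threshold in the LKB1 arrays alone (−1.51), without the 2 discordant controls, without the 3 controls low in cell cycle genes, without the 6 arrays and with array weights (−1.59). Near 4 log2 units, background limits what a low level can show.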

Other observations

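Lists of control genes and of other cell types were also measured. Of 2 measured genes of the chromosome 9p21 region that A549 is known to have lost, CDKN2A averaged 3.24 on A549 LKB1 and 3.06 on H2122 LKB1 arrays and CDKN2B 3.99 on A549 LKB1 and 3.98 on H2122 LKB1 arrays, levels near background in both lines, and limma called 0 differences with LKB1 (0 also at an unadjusted p of 0.05). Of 12 housekeeping genes 33.3% were called with LKB1, close to the 32.8% of all genes: HPRT1 (0.81) and PGK1 (0.47) were higher and TFRC (−1.54) and B2M (−1.49) lower in A549 with LKB1, and 0 changed (2 at an unadjusted p of 0.05). The HPRT1 difference lost its call in 14 of 22 re-fits, among them the replicate block (adjusted p = 0.0579) and median centring (0.0707). Among blood and endothelial markers ITGAM (1.32) was higher and CSF1R (−0.60) lower in A549, and among fibroblast markers PDGFRA (0.94) was higher and PDPN lower.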
